A study of Rattus norvegicus with 8 samples.

Results

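The Bcl2 family and the caspases were followed through 7 genes, Bcl2, Bcl2l1, Mcl1, Bax, Bad, Casp6 and Casp9, in rat brain shortly after a stroke. Members were all probe sets, each read as 1 signal for a transcript, whose platform annotation gave a single symbol equal to 1 of these names. This rule found 11 of 15866 non-control probe sets, for 6 of the 7 genes, out of 10411 genes that had a probe set with a single symbol. Bax, the pore-forming effector of the family, had 1 probe set, which carried 2 symbols and was therefore not named or used. Of the 11 probe sets, 6 exceeded a signal of 916.3, the 40th percentile of the table, on at least 2 of the 8 arrays and entered the tests. They represented Mcl1 and Bcl2l1 with 2 probe sets each, and Bad and Casp9 with 1 each. The other 5, for Bcl2, Casp6, Casp9 (2 probe sets) and Bcl2l1, did not pass it.

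Male Wistar rats of 7 weeks and 160 to 200 g received subcutaneous injections 2 times a day for 5 days. The 4 groups were MCAO vehicle, sham vehicle, MCAO candesartan and sham candesartan, where MCAO is occlusion of the right middle cerebral artery for 90 min followed by reperfusion. Candesartan, a blocker of the angiotensin AT1 receptor, was given at 0.1 mg/kg and the vehicle was saline. RNA came from a segment of the right hemisphere 2 h after surgery, and each Affymetrix RAE 230A array held a pool of 2 rats, with 2 pools a group. The treatment protocol of MCAO candesartan 2 named no pretreatment, and 1 sham candesartan and 1 MCAO candesartan protocol named no route of injection. The group of MCAO candesartan 2 therefore rests on its description.

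The Bcl2 family decides whether the outer membrane of mitochondria is opened. Bcl2, Bcl2l1 (which encodes Bcl-xL) and Mcl1 protect the membrane, Bax and its relatives perforate it, and BH3-only proteins such as Bad bind and neutralise the protectors. Once the membrane is open, cytochrome c assembles the apoptosome with Apaf1 and activates the initiator Casp9, and executioner caspases, Casp6 among them, then cleave cell proteins. Much of this control acts on proteins, by cleavage, phosphorylation and degradation, which mRNA arrays do not measure. Mcl-1 is known as a short-lived protein whose transcript can be induced quickly.

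The arrays were scaled to a trimmed mean signal of 2500, and their medians ranged between 1257.7 and 1378.2. MCAO candesartan 2 stood apart, with a correlation of 0.951 on average to the rest, where each of the others had at least 0.970, and its SD of log2 signals was the highest at 1.26. The 3′ to 5′ signal ratio of the Gapdh control, a sign of RNA integrity, was 1.01 and 1.00 in MCAO vehicle against 1.11 and 1.08 in sham vehicle, and 1.14 and 1.07 in MCAO candesartan against 1.06 and 1.05 in sham candesartan. The Gapdh ratio therefore separated MCAO from sham in opposite directions in the 2 pretreatments. The same ratio of the Actb control did not separate them. It was 1.88 and 2.03 in MCAO vehicle against 2.02 and 1.57 in sham vehicle. With candesartan it was 1.74 and 1.99 in MCAO against 1.74 and 1.82 in sham. Markers of brain tissue were present, with 9 of 10 neuron, 8 of 8 astrocyte and 6 of 7 oligodendrocyte markers past the filter. Blood cells were represented by 2 of 7 markers. In these bulk samples fewer cells of a type and less RNA per cell cannot be told apart.

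No member probe set passed the test in any comparison. In limma's test with Benjamini-Hochberg adjustment over all 10310 tested probe sets, 0 of 6 member probe sets had an adjusted p under 0.05 for MCAO minus sham with vehicle, where 0.262% of all tested probe sets did. The count was 0 of 6 as well for MCAO minus sham with candesartan (0.242% of all), over both pretreatments (0.417%), for candesartan minus vehicle after MCAO (0.0679%), for candesartan minus vehicle after sham (0.0% of all) and for the interaction (0.0194%), the difference between the 2 MCAO effects. The 36 member differences had pointwise 95% intervals that all lay within a 2-fold change on the log2(signal + 372.4) scale, on which every difference below is given and which understates the change of dim genes. The same arrays did register the operation. Fos, an immediate early gene, averaged 9442 ± 2061 in MCAO vehicle against 960 ± 7.07 in sham vehicle (signal, SD, n = 2 pools each), a rise of 2.86 (adjusted p = 3.2e-05 by limma).

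At an unadjusted p under 0.05 the member counts were 2 of 6 for MCAO with vehicle (7.05% of all tested probe sets), 1 of 6 for MCAO with candesartan (12.4%), 0 of 6 over both pretreatments (9.52%), 1 of 6 for candesartan after MCAO (13.1%), 1 of 6 for candesartan after sham (3.92%) and 2 of 6 for the interaction (8.87%). These 7 values came from 3 probe sets, both of Mcl1 and that of Bad. Nothing is called from them. They show where the members' largest measured differences lie relative to the pool spread.

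**Figure D1:**
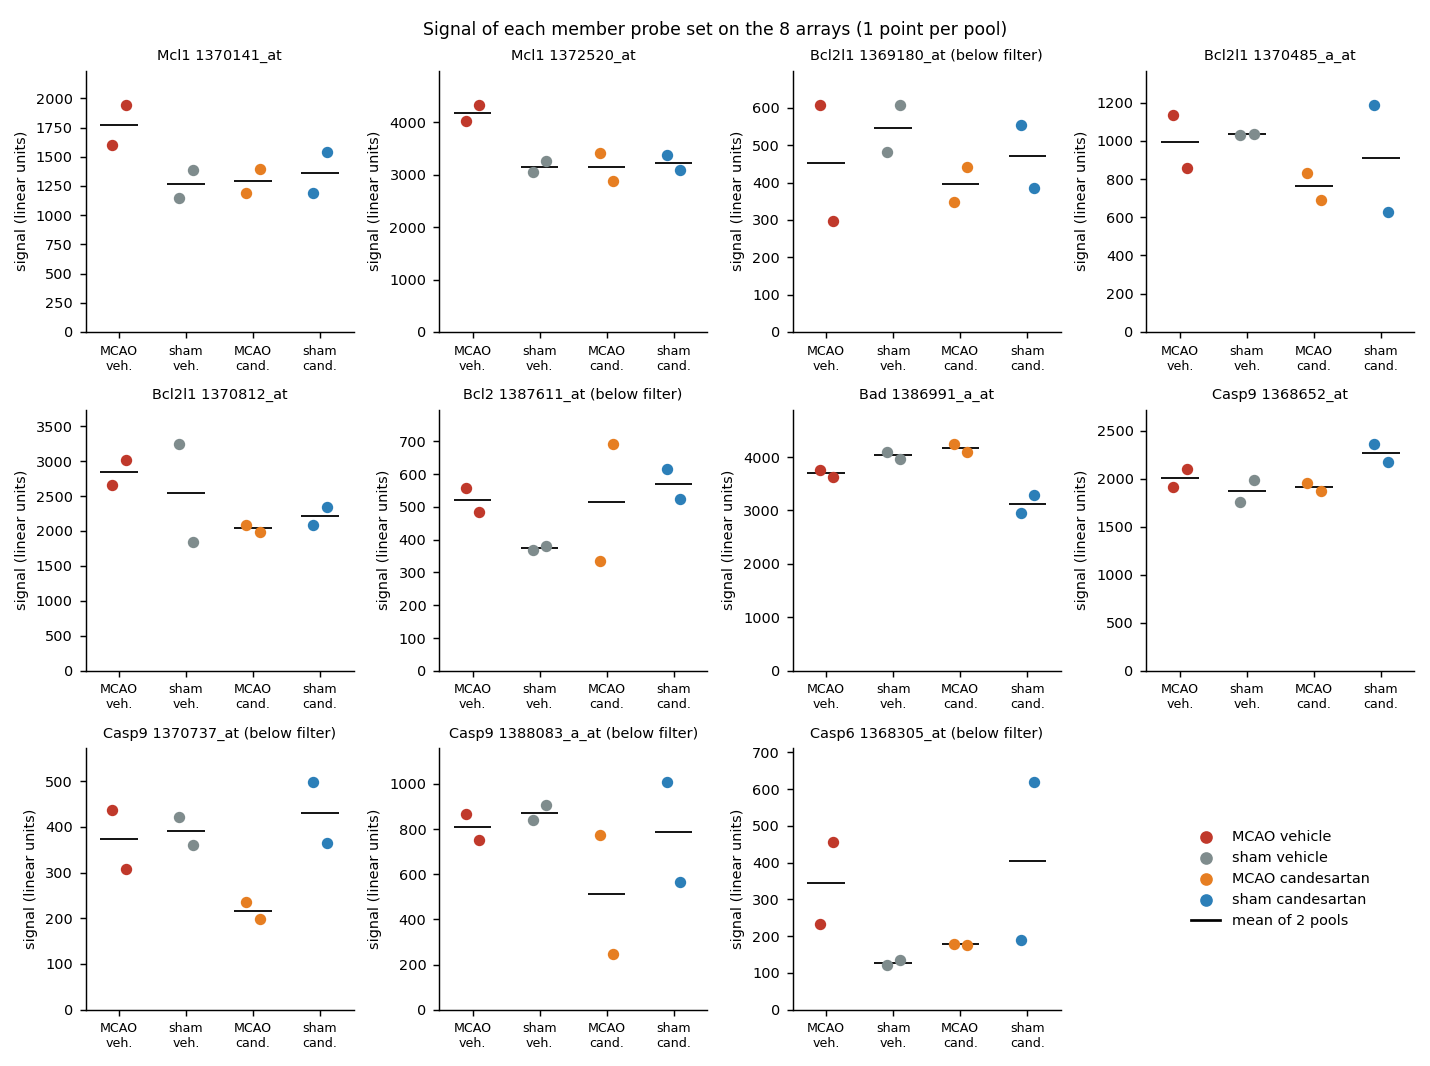
Signal in linear units (vertical axes, each from 0) of the 11 member probe sets on the 8 arrays, by group, with 1 point per pool and a bar at the mean of 2 pools. Both Mcl1 probe sets were highest in the 2 MCAO vehicle pools, and Bad was lowest in the 2 sham candesartan pools at 2950.9 and 3286.8. The share of all probe sets with such an order was not counted.

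Mcl1, a protector of the mitochondrial membrane, was measured by 2 probe sets that read the same RNA and are therefore no independent replicates. Mcl1 1372520_at read 4018.7 and 4334.2 in MCAO vehicle, against 3042.9 and 3260.8 in sham vehicle. It read 3410.3 and 2875.8 in MCAO candesartan, against 3375.3 and 3086.4 in sham candesartan. The 2 MCAO vehicle pools lay above all 6 other pools, which overlapped among themselves. How many of all tested probe sets had 1 group outside the 6 other pools was not counted. MCAO minus sham with vehicle was 0.37 ± 0.13 (SE; 95% interval 0.08 to 0.65; adjusted p = 0.542 by limma), a fold of 1.29, and this difference exceeded in size that of 92.2% of all tested probe sets. With candesartan the same contrast was -0.04 ± 0.13 (interval -0.32 to 0.25; adjusted p = 0.929 by limma).

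Mcl1 1370141_at read 1599.2 and 1945.6 in MCAO vehicle, against 1148.8 and 1389.7 in sham vehicle. It read 1189.3 and 1394.7 in MCAO candesartan, against 1190.8 and 1537.7 in sham candesartan. Here too both MCAO vehicle pools were above the other 6. The difference with vehicle was 0.38 ± 0.17 (interval 0.00 to 0.77; adjusted p = 0.698 by limma) and with candesartan -0.06 ± 0.17 (interval -0.44 to 0.32; adjusted p = 0.918 by limma). The signals of the 2 Mcl1 probe sets had a Pearson correlation of 0.669 across the 8 arrays, which share their pools.

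For candesartan minus vehicle after MCAO, the Mcl1 probe sets gave -0.38 ± 0.13 (interval -0.66 to -0.09; adjusted p = 0.279 by limma) for 1372520_at and -0.36 ± 0.17 (interval -0.74 to 0.02; unadjusted p = 0.0588 by limma) for 1370141_at. The MCAO candesartan pools lay below the MCAO vehicle pools in both. This comparison and the MCAO comparison with vehicle use the same MCAO vehicle arrays, so their opposite signs are not separate observations. After sham surgery candesartan minus vehicle was 0.03 and 0.08 in the 2 probe sets, with overlapping pools. The Mcl1 interaction was -0.41 ± 0.18 for 1372520_at (adjusted p = 0.558 by limma) and -0.44 ± 0.24 for 1370141_at (unadjusted p = 0.0976). With MCAO candesartan 2 left out, candesartan minus vehicle after MCAO was -0.27 for 1372520_at (adjusted p = 0.545 by limma) and -0.45 for 1370141_at (adjusted p = 0.487). Without MCAO candesartan 1, which leaves that array alone in its group, 1372520_at gave -0.48 (adjusted p = 0.0539 by limma).

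**Figure D2:**
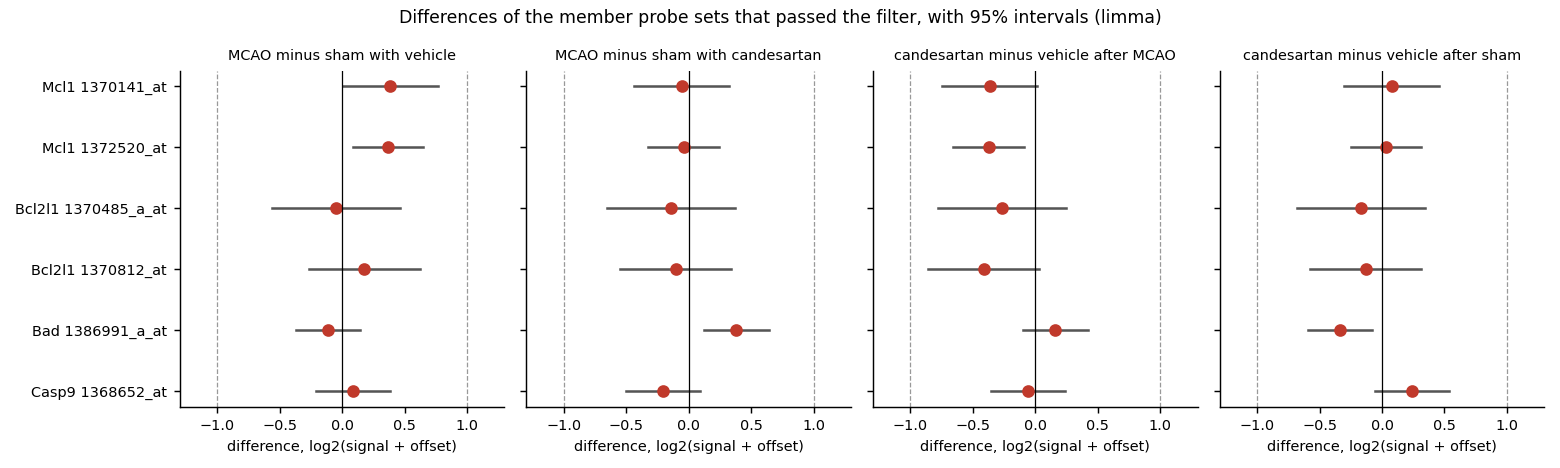
Differences in log2(signal + offset) (horizontal axes) of the 6 member probe sets that passed the filter, for 4 comparisons, with points for the estimates, bars for pointwise 95% intervals by limma and dashed lines at a 2-fold change. All intervals lay inside the dashed lines, and the lowest bound shown was -0.86, for Bcl2l1 1370812_at after MCAO.

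Bad, a BH3-only gene whose product neutralises Bcl-xL and is held inactive by phosphorylation, had 1 probe set, 1386991_a_at. It read 3758.8 and 3632.3 in MCAO vehicle, against 4096.1 and 3965.7 in sham vehicle. It read 4252.1 and 4095.0 in MCAO candesartan, against 2950.9 and 3286.8 in sham candesartan. The sham candesartan pools were the lowest of the 8, the MCAO candesartan pools overlapped the sham vehicle pools, and the order of MCAO and sham was opposite in the 2 pretreatments, with no overlap in either. MCAO minus sham was 0.38 ± 0.12 with candesartan (interval 0.12 to 0.64; adjusted p = 0.274 by limma) and -0.11 ± 0.12 with vehicle (interval -0.37 to 0.14; adjusted p = 0.911). Candesartan minus vehicle was -0.34 ± 0.12 after sham (interval -0.59 to -0.08; adjusted p = 1.0 by limma) and 0.16 ± 0.12 after MCAO (adjusted p = 0.586). The interaction was 0.50 ± 0.17 (interval 0.13 to 0.86; adjusted p = 0.495 by limma) and shares the sham candesartan arrays with the first of these differences. Without MCAO candesartan 2, MCAO minus sham with candesartan was 0.41 (adjusted p = 0.326 by limma).

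Summed signals of cell type markers, in which bright markers weigh most, separated some of the same groups. No single marker was called in any comparison. With candesartan, MCAO minus sham was above 0 for 6 of 9 neuron, 1 of 6 microglia and 0 of 2 blood cell markers. With vehicle this held for 1 of 9 neuron, 0 of 8 astrocyte, 2 of 6 microglia and 1 of 2 blood cell markers. Of all tested probe sets, 16.9% were higher and 21.4% lower without overlap with candesartan, and 24.6% and 20.6% with vehicle. Between MCAO and sham with candesartan, the contrast with the largest of Bad's MCAO differences, the 9 neuron markers summed to 219406.1 to 244004.1 in MCAO candesartan and 189736.4 to 194336.1 in sham candesartan. The 6 microglia and macrophage markers summed to 10173.2 to 10610.3 in MCAO candesartan and 11800 to 14955.5 in sham candesartan, and the 2 blood cell markers to 79474.1 to 81863.8 in MCAO candesartan and 94271.1 to 110185.5 in sham candesartan. With vehicle, the 8 astrocyte markers summed to 148616.9 to 161148.9 in MCAO and 177017.3 to 183525.2 in sham, and the microglia and macrophage markers to 11892.6 to 12040.2 in MCAO and 12447.5 to 12534.2 in sham. The neuron sums with vehicle overlapped, at 189212.9 to 195436.8 in MCAO and 187656.9 to 213327.6 in sham, as did the blood cell sums, at 89475.2 to 95946.7 in MCAO and 93197.1 to 103756.2 in sham.

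After MCAO, where Mcl1 was lower with candesartan than with vehicle without passing the test, the neuron, microglia and blood cell sums above did not overlap between the pretreatments. The 5 endothelial markers summed to 13207.8 to 13280.3 in MCAO candesartan and 11634.2 to 12128.2 in MCAO vehicle, again without overlap. After sham surgery, where Bad was lower with candesartan, the neuron, microglia and blood cell sums overlapped between the pretreatments, and the 6 oligodendrocyte markers did not, at 268671.1 to 275855.4 in sham candesartan and 252877.7 to 254284.7 in sham vehicle. After MCAO, 6 of 9 neuron, 2 of 6 microglia, 0 of 2 blood cell and 3 of 5 endothelial markers were higher with candesartan. After sham surgery this held for 5 of 6 oligodendrocyte markers. Without overlap, 18.0% of all tested probe sets were higher and 23.8% lower after MCAO, and 18.9% and 14.9% after sham surgery. The part of the markers and of the Gapdh and Actb ratios in the Mcl1 and Bad values was not tested.

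The proximal promoters of Mcl1 and Bad are shown because, among the probe sets that passed the filter, these genes held all the differences with an unadjusted p under 0.05. RefSeq promoters matched 6 of the 7 member genes. The sequences are on GRCr8, 250 bases before to 50 after the annotated start, 5′ to 3′ on the plus strand, at chr2:185907918-185908217 for Mcl1 and chr1:213562864-213563163 for Bad. Capitals mark matches on either strand to CGTCA, the half-site of the cyclic AMP response element, or to TGANTCA, the AP-1 site bound by Fos and Jun.
Mcl1: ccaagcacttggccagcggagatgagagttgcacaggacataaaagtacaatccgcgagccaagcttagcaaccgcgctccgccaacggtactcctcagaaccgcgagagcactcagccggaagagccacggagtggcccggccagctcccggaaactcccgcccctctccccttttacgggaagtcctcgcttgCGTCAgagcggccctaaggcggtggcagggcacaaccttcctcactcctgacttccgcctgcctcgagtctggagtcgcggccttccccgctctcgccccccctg
Bad: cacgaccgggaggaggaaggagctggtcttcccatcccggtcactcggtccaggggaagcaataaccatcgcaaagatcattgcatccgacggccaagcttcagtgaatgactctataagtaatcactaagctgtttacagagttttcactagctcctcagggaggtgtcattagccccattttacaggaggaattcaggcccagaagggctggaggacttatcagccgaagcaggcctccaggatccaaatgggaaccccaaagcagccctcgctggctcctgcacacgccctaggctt
Mcl1 had 1 match to CGTCA, starting at base -55, and CGTCA occurred in 21.2% of 33469 promoters of this length. Neither promoter matched TGANTCA, found in 7.33% of promoters, or the full element TGACGTCA, found in 1.83%, in which CGTCA is contained. The core of ETS factor sites, GGAAG, matched 5 times in Mcl1 and 3 times in Bad, and was present in 70.1% of promoters. A match describes letters in this window and not a bound site.

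Bcl2l1, which encodes the protector Bcl-xL, had 3 probe sets. Bcl2l1 1370812_at read 2662.5 and 3011.4 in MCAO vehicle, against 3250.0 and 1839.1 in sham vehicle, so that the sham pools spanned the MCAO pools. It read 2090.1 and 1982.0 in MCAO candesartan, against 2092.1 and 2345.0 in sham candesartan. MCAO minus sham was 0.18 ± 0.20 with vehicle (adjusted p = 0.931 by limma) and turned to -0.18 without sham vehicle 2. It was -0.10 ± 0.20 with candesartan (adjusted p = 0.867 by limma). After MCAO, candesartan minus vehicle was -0.41 ± 0.20 (interval -0.86 to 0.03; adjusted p = 0.410 by limma), with the MCAO candesartan pools below the MCAO vehicle pools.

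Bcl2l1 1370485_a_at, whose suffix marks probes shared by alternative transcripts of a gene, read 1134.8 and 855.8 in MCAO vehicle, against 1032.8 and 1035.8 in sham vehicle. It read 833.8 and 692.3 in MCAO candesartan, against 1188.8 and 628.9 in sham candesartan. Its MCAO differences were -0.05 ± 0.23 with vehicle and -0.14 ± 0.23 with candesartan, and the pools overlapped in both. The third probe set, 1369180_at, lay below the filter and ranged over the 8 arrays between 296.4 and 608.4. Across the arrays the correlation between 1369180_at and 1370485_a_at was 0.683. Bcl2l1 1370812_at had lower correlations with both, 0.142 with 1370485_a_at and -0.28 with 1369180_at.

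Bcl2, the founding protector of the family, was measured only by 1387611_at, below the filter on all arrays. It read 557.4 and 484.9 in MCAO vehicle, against 367.0 and 381.9 in sham vehicle. It read 334.9 and 692.8 in MCAO candesartan, against 615.4 and 523.4 in sham candesartan. The MCAO candesartan pools differed from each other by more than any 2 group means. When all probe sets were tested, MCAO minus sham was 0.26 ± 0.22 with vehicle (adjusted p = 0.952 by limma) and -0.12 ± 0.22 with candesartan (adjusted p = 0.875).

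Casp9, the initiator caspase of the apoptosome, had 1 probe set above the filter. Casp9 1368652_at read 1912.1 and 2105.6 in MCAO vehicle, against 1755.1 and 1985.1 in sham vehicle. It read 1959.6 and 1869.1 in MCAO candesartan, against 2367.5 and 2173.6 in sham candesartan. The sham candesartan pools were the highest of the 8. MCAO minus sham was 0.09 ± 0.13 with vehicle (interval -0.21 to 0.38; adjusted p = 0.954 by limma) and -0.21 ± 0.13 with candesartan (interval -0.50 to 0.09; adjusted p = 0.548), and candesartan minus vehicle after sham was 0.24 ± 0.13 (adjusted p = 1.0).

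The other Casp9 probe sets were dim. Casp9 1370737_at read 437.9 and 308.9 in MCAO vehicle, against 422.0 and 361.4 in sham vehicle. It read 236.5 and 197.5 in MCAO candesartan, against 497.4 and 364.9 in sham candesartan. The MCAO candesartan pools were the lowest of the 8. With all probe sets tested, its MCAO difference with candesartan was -0.44 ± 0.17 (adjusted p = 0.409 by limma). Casp9 1388083_a_at read 775.3 and 246.9 in MCAO candesartan, the lower value being that of MCAO candesartan 2, and between 563.9 and 1006.8 on the other 6 arrays. With vehicle the MCAO differences of these 2 probe sets were -0.04 and -0.08.

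Casp6, an executioner caspase known for cleaving nuclear lamins and for roles in axon degeneration, was measured only by the dim probe set 1368305_at. It read 232.5 and 457.4 in MCAO vehicle, against 121.0 and 134.0 in sham vehicle. It read 179.0 and 176.5 in MCAO candesartan, against 190.0 and 618.4 in sham candesartan. MCAO lay above sham with vehicle and below it with candesartan, and all these signals were under the filter of 916.3. With all probe sets tested, the differences were 0.50 ± 0.26 with vehicle (adjusted p = 0.869 by limma) and -0.44 ± 0.26 with candesartan (adjusted p = 0.569).

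Pools that did not overlap were common among all probe sets with 2 pools a group. The shares below compare 2 groups, or all MCAO with all sham pools. No share was counted for 1 group lying above or below all 6 other pools, as described for Mcl1, Bad and Casp9. That order is therefore not shown to be particular to these genes. The 6 member probe sets stand for 4 genes, as Mcl1 and Bcl2l1 have 2 each. For MCAO with vehicle, 2 were higher without overlap, both of Mcl1 (24.6% of all tested probe sets), and 1 lower (20.6%). For MCAO with candesartan the counts were 1 higher (16.9% of all) and 2 lower (21.4%). For candesartan after MCAO they were 1 higher (18.0%) and 4 lower (23.8%). These 4 were both probe sets of Mcl1 and both tested ones of Bcl2l1. For Bcl2l1 1370485_a_at the nearest pools read 833.8 and 855.8, both under the filter. Its difference was -0.26 ± 0.23 (adjusted p = 0.663 by limma). The dim Bcl2l1 1369180_at overlapped, with a difference of -0.08. For candesartan after sham the counts were 1 higher (18.9%) and 1 lower (14.9%). Over both pretreatments, 0 of 6 had all 4 MCAO pools on one side of all 4 sham pools, as 2.83% of all were on the higher and 2.39% on the lower side. The median difference over the 6 member probe sets was -0.31 for candesartan minus vehicle after MCAO, against -0.03 over all tested probe sets. Mcl1 and Bcl2l1 count with 2 probe sets each in this median. With 1 probe set per gene, the 11 tested Bcl2 family genes of the wider list below had a median of -0.19. The median over the 6 member probe sets was 0.13 against 0.01 for MCAO with vehicle and -0.08 against -0.03 for MCAO with candesartan.

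A wider list of 58 genes of the pathway, members included, placed them among their partners. It was drawn up with earlier results of these data known. Of these, 46 had a probe set with a single symbol and 31 passed the filter, with 1 probe set per gene, the brightest on average. In limma's test 0 of 31 were called in any of the 6 comparisons, against 0.0% to 0.417% of all tested probe sets per comparison. An unadjusted p under 0.05 was found for 12 of the 186 values, a share within the 3.92% to 13.1% of all tested probe sets per comparison. The Bcl2 family had 11 tested genes, with 6 above and 5 below 0 for MCAO with vehicle (median 0.03) and 3 above and 8 below with candesartan (median -0.10). The 3 tested caspases, Casp2, Casp9 and Casp12, were above 0 with vehicle (median 0.18) and below 0 with candesartan (median -0.21). With vehicle the pools of Casp9 and Casp12 overlapped. Another Casp2 probe set, 1367891_a_at, gave 0.002 with vehicle, and the dim Casp9 probe sets gave -0.04 and -0.08. With candesartan these gave -0.26, -0.44 and -0.43. The 13 apoptosome, inhibitor and mitochondrial genes had 11 and 9 above 0 with vehicle and candesartan (medians 0.08 and 0.13), and the 4 death receptor genes 2 and 1 (medians 0.09 and -0.11). The medians over all tested probe sets were 0.01 and -0.03.

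**Figure D3:**
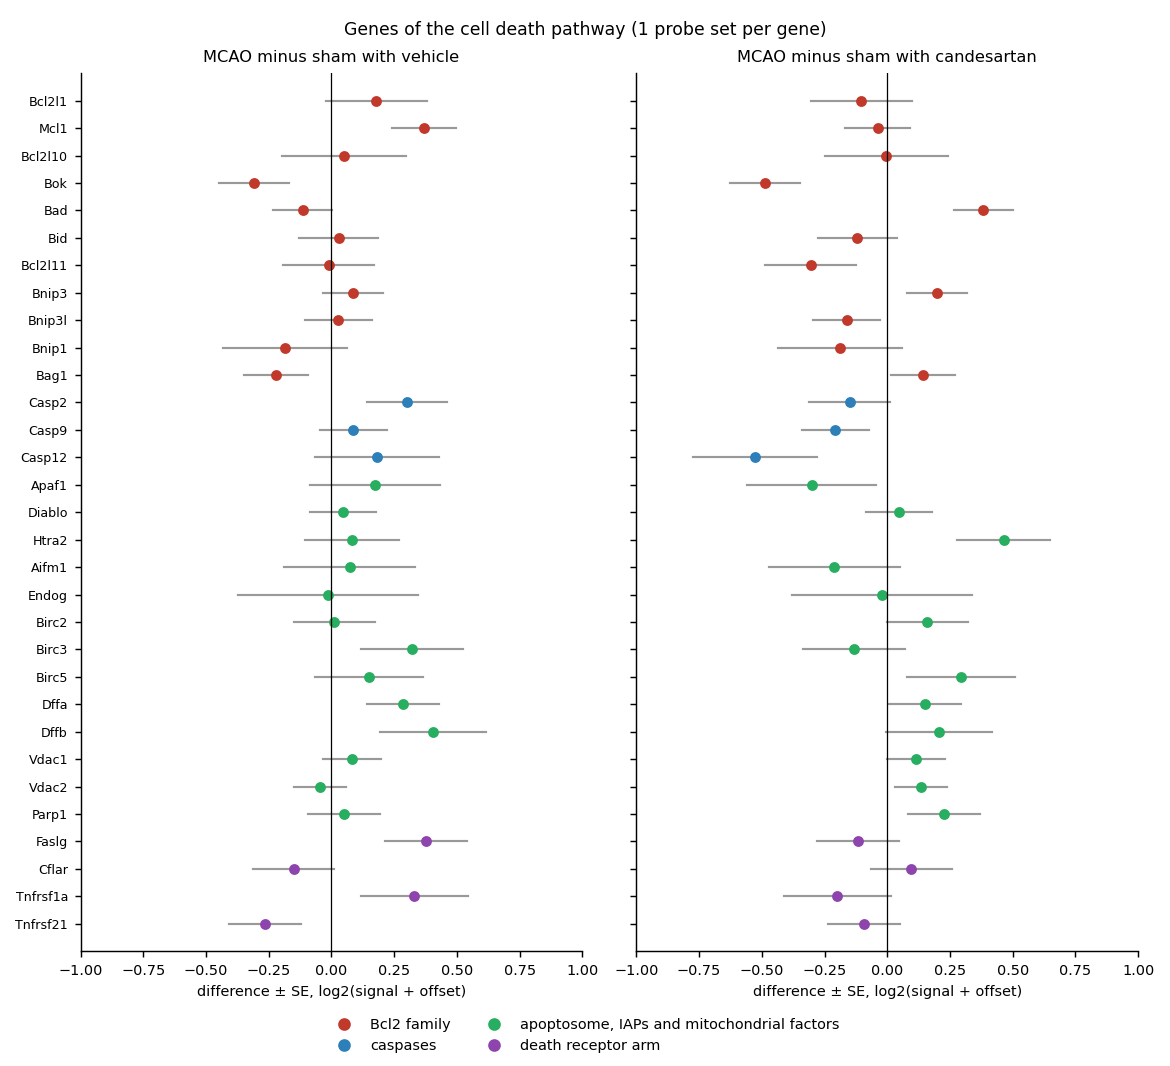
Difference between MCAO and sham in log2(signal + offset) (horizontal axes) for the 31 tested genes of the cell death pathway, with vehicle on the left and candesartan on the right. Points are estimates by limma, bars are ± 1 SE and colours mark the gene lists. Values lay between -0.53 for Casp12, whose signals were near the filter, and 0.46 for Htra2, both with candesartan.

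Besides the members, Bok, a Bax-like effector, had the smallest p over both pretreatments. Bok 1373733_at read 4692.1 and 4854.6 in MCAO vehicle, against 5175.9 and 6935.1 in sham vehicle. It read 3934.2 and 4185.0 in MCAO candesartan, against 5839.3 and 5838.8 in sham candesartan. All 4 MCAO pools were below all 4 sham pools, and the difference was -0.40 ± 0.10 (interval -0.62 to -0.18; adjusted p = 0.164 by limma). The other Bok probe set, 1369084_a_at, gave -0.06 over both pretreatments (adjusted p = 0.925 by limma).

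Dffa, which encodes the inhibitor of the caspase-activated DNase, read 1692.7 and 2090.1 in MCAO vehicle, against 1458.2 and 1498.2 in sham vehicle. It read 1670.2 and 1755.6 in MCAO candesartan, against 1528.2 and 1488.2 in sham candesartan. All 4 MCAO pools were above all 4 sham pools (0.22 ± 0.10; adjusted p = 0.544 by limma). In all, 2 of the 31 genes, Dffa and Bnip3, had all MCAO pools above all sham pools and 1, Bok, had them below, against 2.83% and 2.39% of all tested probe sets. Bnip3, a BH3-like gene of mitophagy with a difference of 0.14, was named after its values were seen.

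Other genes with the smallest p were also not called. Htra2, a mitochondrial protease that antagonises inhibitors of apoptosis, had 0.46 ± 0.19 for MCAO with candesartan (adjusted p = 0.357 by limma). Its difference was 0.27 over both pretreatments and 0.08 with vehicle. Htra2 read 2907.4 and 3136.8 in MCAO candesartan, against 1617.7 and 2668 in sham candesartan. Casp12, a caspase of the endoplasmic reticulum in rodents, had -0.53 ± 0.25 in the same contrast (adjusted p = 0.420). Faslg, the Fas ligand gene, read 1457.2 and 1334.7 in MCAO vehicle, against 942.3 and 1038.8 in sham vehicle, a difference of 0.38 ± 0.16 (adjusted p = 0.682 by limma). For candesartan minus vehicle after MCAO, Faslg had -0.44 ± 0.16 (adjusted p = 0.310 by limma), Tnfrsf1a, a TNF receptor gene, -0.52 ± 0.21 (adjusted p = 0.347) and Casp12 -0.53 (adjusted p = 0.390). Tnfrsf1a read 685.9 and 811.8 in MCAO candesartan, against 985.8 and 1528.7 in MCAO vehicle. Casp12 read 634.4 and 443.9 in MCAO candesartan, against 659.9 and 1296.8 in MCAO vehicle. Both genes were thus under the filter of 916.3 in both MCAO candesartan pools. After sham surgery the smallest p belonged to Casp2 (0.31), the inhibitor of apoptosis gene Birc3 (0.36) and Bnip1 (-0.36), each at an adjusted p = 1.0 by limma. A second Casp2 probe set, 1367891_a_at, gave 0.13 in this contrast (adjusted p = 1.0 by limma). Birc3 passed the filter only on MCAO vehicle 1 and sham candesartan 2, at 993.8 and 1026.8. For the interaction, Casp12 had -0.71 ± 0.35, Faslg -0.49 and the chaperone regulator gene Bag1 0.36. Their adjusted p by limma lay between 0.563 and 0.576.

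The genes whose log2 signals were most like a member's over the 8 arrays were taken from all tested genes. For Mcl1 1372520_at they were Ints4 (Pearson r = 0.983) and Usp54 (r = 0.973), and for Bad Schip1 (r = 0.966) and Tfe3 (r = 0.951). For Casp9 1368652_at they were Dhrs1 (r = 0.958) and Adam17 (r = 0.953), and for Bcl2l1 1370812_at RGD1311745 (r = 0.940) and H2ac25 (r = 0.934). These were the highest values over all tested genes and 8 arrays, and describe likeness only.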

How the data were processed

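The authors deposited linear signal intensity values per probe set for 8 Affymetrix RAE 230A arrays, and GCOS is named per the submitters' processing notes, with version and settings not given in the sources used here. No detection calls were used. The 57 controls were left out, 372.4 (the 20th percentile) was added and log2 taken. Probe sets were kept above 916.3 on at least 2 arrays. All 4 groups were fitted in 1 limma model (version 3.58.1, R 4.3.3; variance trend, 4 residual degrees of freedom), tested on simulated data, with Benjamini-Hochberg adjustment over 10310 probe sets per contrast and a threshold of 0.05. Arrays limit the precision by their number, and 2 pools against 2 cannot go below an exact p of 0.333. The series' design text calls the pools of a group independent.

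Symbols came from the platform annotation (12789 probe sets with 1 symbol, 312 with several, 2771 non-controls with none). The members and lists were chosen with earlier results of these data known. All members were named, and of the wider list the 3 genes with the smallest p per contrast besides members. The planned comparison of Bax with its relatives was not made because its probe set had several symbols. Alternatives covered scaling, offset, filter, variance trend, groups fitted, a replicate block and each array left out. The pool numbers in the sample titles were not treated as pairing: same-numbered pools deviated together, with a correlation over 0.1, in 1 of 6 pairs of groups (range -0.10 to 0.14).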

Additional observations from a re-analysis of the deposited data

Results flagged for a closer look

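The order of MCAO and sham pools for Bad 1386991_a_at differed between the pretreatments. Both MCAO candesartan pools lay above both sham candesartan pools, and both MCAO vehicle pools below both sham vehicle pools. Of all tested probe sets, 16.9% were higher without overlap with candesartan and 20.6% lower with vehicle. The share with both was not counted. In the wider list Bag1 and Vdac2 had the same order as Bad, without overlap in either pretreatment. Vdac2 was named after its values were seen. The MCAO difference with vehicle was -0.11 (interval -0.37 to 0.14), and the sham candesartan pools were the lowest of the 8. The difference between the 2 MCAO effects was 0.50 (log2), tested by limma's interaction at an adjusted p = 0.495. Leaving out 1 array at a time gave differences of 0.43 to 0.57.

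Casp6 1368305_at showed the opposite order, with MCAO pools above sham pools under vehicle and below them under candesartan. The difference between the effects was -0.94. Under candesartan Casp6 read 179.0 and 176.5 in MCAO against 190.0 and 618.4 in sham. The MCAO difference with candesartan, -0.44, came largely from sham candesartan 2. The MCAO difference with vehicle was 0.50 and does not use that pool. Of all tested probe sets, 24.6% were higher without overlap with vehicle and 21.4% lower with candesartan. The share with both was not counted, and Faslg of the wider list also had this order without overlap. All 8 signals were between 121 and 618.4, below the filter, and with all probe sets tested the interaction had an adjusted p = 0.619 by limma. Groups of 2 pools were too small for a check of outlying pools.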

How the results depend on the processing

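No member probe set was called under any alternative run, and 560 of 588 member values kept their sign while 28 reversed. Many of these signs could not change. The filter, variance trend, replicate block and groups fitted leave the difference itself as it was. So does leaving out an array that the comparison does not use. The count of kept signs is therefore no measure of stability. The lowest adjusted p by limma was 0.0539 (Mcl1 1372520_at, candesartan minus vehicle after MCAO, without MCAO candesartan 1) and 0.174 with no array left out. The causes of the reversals were not tested. With quantile normalization, Casp9 1368652_at after MCAO was 0.0031, Mcl1 1370141_at for MCAO with candesartan 0.0085 and the interaction of Bcl2l1 1370485_a_at 0.0496. With median-centred arrays these were 0.0218, 0.0056 and 0.0355, and Mcl1 1372520_at was 0.0238 for MCAO with candesartan and -0.0184 for candesartan after sham.

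Leaving out 1 array at a time gave, for Mcl1 1372520_at, -0.1485 to 0.0713 for MCAO with candesartan and -0.0264 to 0.0894 for candesartan after sham. For Mcl1 1370141_at the same contrasts gave -0.2014 to 0.0877 and -0.0668 to 0.2224. Bcl2l1 1370812_at ranged over -0.1768 to 0.5351 for MCAO with vehicle, -0.1404 to 0.2156 over both pretreatments, -0.4852 to 0.2267 for candesartan after sham and -0.6391 to 0.0728 for the interaction. Bcl2l1 1370485_a_at ranged over -0.1958 to 0.0996, -0.2552 to 0.0652 and -0.4904 to 0.1503 in the first 3 of these, -0.4622 to 0.1786 for MCAO with candesartan and -0.4141 to 0.2267 for the interaction. Casp9 1368652_at ranged over -0.1162 to 0.0011 for candesartan after MCAO and, with its sign kept, 0.0133 to 0.1614 for MCAO with vehicle.

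Over all probe sets, MCAO with vehicle gave 27 calls, 12 with no filter, 93 with only the groups compared and 7 to 43 with 1 array left out. MCAO with candesartan gave 25, 16, 11 and 5 to 836, and both pretreatments gave 43 and 23 to 389. Candesartan after MCAO gave 7 calls, 2 with the smaller offset, 4 with no variance trend, 4 with the replicate block, 0 with no filter or only the groups compared, and 0 to 985 with 1 array left out. The interaction gave 2, 0 with no filter, the stricter filter or the replicate block, and 0 to 295. The highest counts of 836, 389, 985 and 295 arose without MCAO candesartan 1, which leaves MCAO candesartan 2 alone in its group, assumed to vary like the others. The replicate block changed no member call. Signals below the filter limit what Bcl2 and Casp6 can show.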
